A study of Rattus norvegicus with 56 samples.

Results

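The red cell microRNAs described here were miR-144-3p, miR-144-5p, miR-451-5p and miR-486. They were taken by name from the deposited counts of mature microRNAs, after the species prefix had been removed, and are 4 of the 682 microRNAs listed in the series. All 4 were listed in the myocardium, the amniotic fluid and the maternal serum. The samples came from Sprague-Dawley rats on embryonic day 19. Dams of the NC group had been given distilled water. Dams of the other groups had been given dimethadione (DMO), the active metabolite of the antiepileptic drug trimethadione, which causes heart defects in rat fetuses. Among the DMO-exposed fetuses, those with a ventricular septal defect and normal great vessels made up the VSD group, and those with a closed septum made up the non-VSD group. Each group held 7 samples, with 3 groups for the heart and for amniotic fluid and 2 (NC and VSD) for maternal serum, 56 samples in all. The fetal hearts had been rinsed and embedded in wax before RNA extraction, the amniotic fluid was a supernatant after centrifugation, and the serum came from clotted blood of the dams. The dam of each fetus is not given in the sources used here, so fetuses of 1 litter may stand in a group as separate samples, and the p-values measure the spread between these samples.

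MiR-144 and miR-451 lie in a single gene cluster that the erythroid transcription factor GATA1 switches on as red cell precursors mature, and both accumulate in red cells to very high levels. MiR-451 is unusual in that Argonaute 2, and not Dicer, cuts its short hairpin. MiR-486 lies in an intron of the gene for ankyrin 1, a protein of the red cell membrane skeleton, and is made in red cells and also in striated muscle. Because red cells release these microRNAs when they break, the ratio of miR-451 to miR-23a, a microRNA that red cells contribute little to, is in common use to grade lysis in plasma and serum.

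The mature sequences are printed to show that the members are different molecules and not copies of one read. They are from RefSeq (GRCr8), 5′ to 3′, with the seed (bases 2 to 8) in capitals. MiR-451-3p is the other arm of the miR-451 hairpin. RefSeq's table matched 3 of the 4 members, and miR-486 is given by name only.
miR-144-5p: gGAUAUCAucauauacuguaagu
miR-144-3p: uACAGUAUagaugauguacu
miR-451-5p: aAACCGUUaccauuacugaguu
miR-451-3p: aUGGUAAUgguucucuugcugcu
No other of the 693 mature names in that table shared bases 2 to 8 with any of these 4 sequences. MiR-101a-3p and miR-101b-3p shared bases 2 to 7 with miR-144-3p, and miR-1193-5p shared them with miR-451-3p. The mature forms lie on the plus strand of chromosome 10, miR-144-5p at chr10:63459409-63459431, miR-144-3p at chr10:63459446-63459465 and miR-451-5p at chr10:63459585-63459606.

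Both hairpins are shown because they carry the positions of the mature arms, which are in capitals (in the Mir451a hairpin, the 5′ arm only).
Mir144: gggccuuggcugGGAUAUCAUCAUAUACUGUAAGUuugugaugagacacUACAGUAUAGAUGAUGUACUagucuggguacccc
Mir451a: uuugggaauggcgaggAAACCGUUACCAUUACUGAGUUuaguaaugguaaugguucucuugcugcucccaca
Mir144 covers chr10:63459397-63459479 (83 bases) and Mir451a covers chr10:63459569-63459640 (72 bases), with 89 bases between them. In the Mir451a hairpin, miR-451-5p runs from base 17 to base 38 and so passes the middle of the hairpin. No other annotated gene overlapped the pair, and the nearest was Eral1, 134 bases away.

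The heart libraries held 1694811 to 9371130 counts, those of amniotic fluid 78188 to 331787 and those of maternal serum 147609 to 581350. A count of 0 allowed a level of up to 1.77 CPM (counts divided by the sum of the listed counts of a sample and multiplied by 1e+06) in the myocardium, 38.4 CPM in amniotic fluid and 20.3 CPM in serum. These limits cover counting error only. The labelled tissue was checked with 6 heart muscle microRNAs (miR-1-3p, miR-133a-3p, miR-133b-3p, miR-208a-3p, miR-208b-3p and miR-499-5p), all of which had counts in the myocardium. In 3 myocardium libraries, NC replicate 2 and VSD replicates 1 and 4, they summed to 5024 to 9440 CPM, against 21759 to 62416 CPM in the other 18. The same 3 libraries held 15268 to 20703 CPM of 7 epithelial microRNAs (the miR-200 family, miR-203a-3p and miR-205), against 158 to 13413 CPM in the other 18. Tests on the myocardium were therefore repeated without them, and the values are given where a call changed.

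In the NC myocardium, miR-451-5p was the most counted of the 4 and the arms of miR-144 were the least counted. MiR-451-5p ranged from 1982 to 50904 CPM with a median of 19676 CPM (n = 7). MiR-486 ranged from 1031 to 22164 CPM with a median of 9011 CPM. MiR-144-5p had a median of 919.9 CPM and miR-144-3p one of 587 CPM. The levels spread widely among control hearts, and NC replicate 2 was the lowest of the 7 for every member. These are counts as ligated and sequenced, so levels of different microRNAs in a library are a description of the counts.

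The 4 members were lower in the VSD myocardium than in the NC myocardium. MiR-144-3p, from the 3′ arm of the miR-144 hairpin, ranged from 38.9 to 265 CPM in the VSD hearts (median 146 CPM) and from 140 to 1618 CPM in the NC hearts. All 7 VSD hearts lay below the NC median, and 2 lay below every NC heart. MiR-144-5p, from the 5′ arm, ranged from 119 to 745 CPM (median 166 CPM), against 113 to 2183 CPM in NC. MiR-451-5p ranged from 3318 to 15108 CPM, with a median of 6845 CPM. MiR-486 ranged from 847 to 8105 CPM, with a median of 1787 CPM. For each of the 4, every VSD heart lay below the NC median, yet the groups overlapped because NC replicates 2 and 4 were low. For miR-486, VSD replicate 6 at 8105 CPM also lay above NC replicate 6 at 7994 CPM.

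With TMM scaling, a normalization that assumes most microRNAs unchanged, the log2 fold change was -2.62 for miR-144-3p (SE 0.58), or 6.15-fold lower, by edgeR's quasi-likelihood test. MiR-144-5p followed at -2.39 (SE 0.64), miR-486 at -2.36 (SE 0.64) and miR-451-5p at -1.89 (SE 0.59). All 4 met the threshold of a DE-microRNA (at least 2-fold up or down, with an unadjusted p under 0.05), by which 4.26% of the 469 microRNAs tested were lower in VSD. Their median log2 fold change was -2.37, against -0.05 over all tested. After Benjamini-Hochberg adjustment over the whole table, none of the 4 passed 0.05 (adjusted p 0.0569 for miR-144-3p, 0.0716 for miR-144-5p and miR-486, and 0.0915 for miR-451-5p), and 0.426% of the table did. When libraries were scaled by their totals alone, the median of all microRNAs moved to 0.32 and the split of DE-microRNAs turned from 20 lower and 12 higher to 12 lower and 33 higher, with all 4 members still lower. The exact two-sided permutation test of TMM-scaled log2 CPM gave p = 0.00641 for miR-144-3p, 0.0169 for miR-486, 0.0175 for miR-144-5p and 0.0670 for miR-451-5p (n = 7 per group). The adjusted call rested on single libraries. Without NC replicate 2, all 4 had an adjusted p under 0.05, between 0.00373 and 0.0103, in a table in which 16.2% of the 474 microRNAs tested did. The same held for the 4 without VSD replicate 6, the VSD heart with the highest levels of each, in a table in which 4.23% of 473 did. Leaving out any other single heart gave at most 1 member with an adjusted p under 0.05, in tables in which 0% to 1.06% did. Without the 3 libraries low in heart muscle microRNAs, all 4 again met the DE-microRNA threshold, by which 24 of 472 were lower and 31 higher. MiR-144-3p and miR-486 passed at an adjusted p of 0.0336 and 0.0466, in a table in which 1.48% passed.

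**Figure D1:**
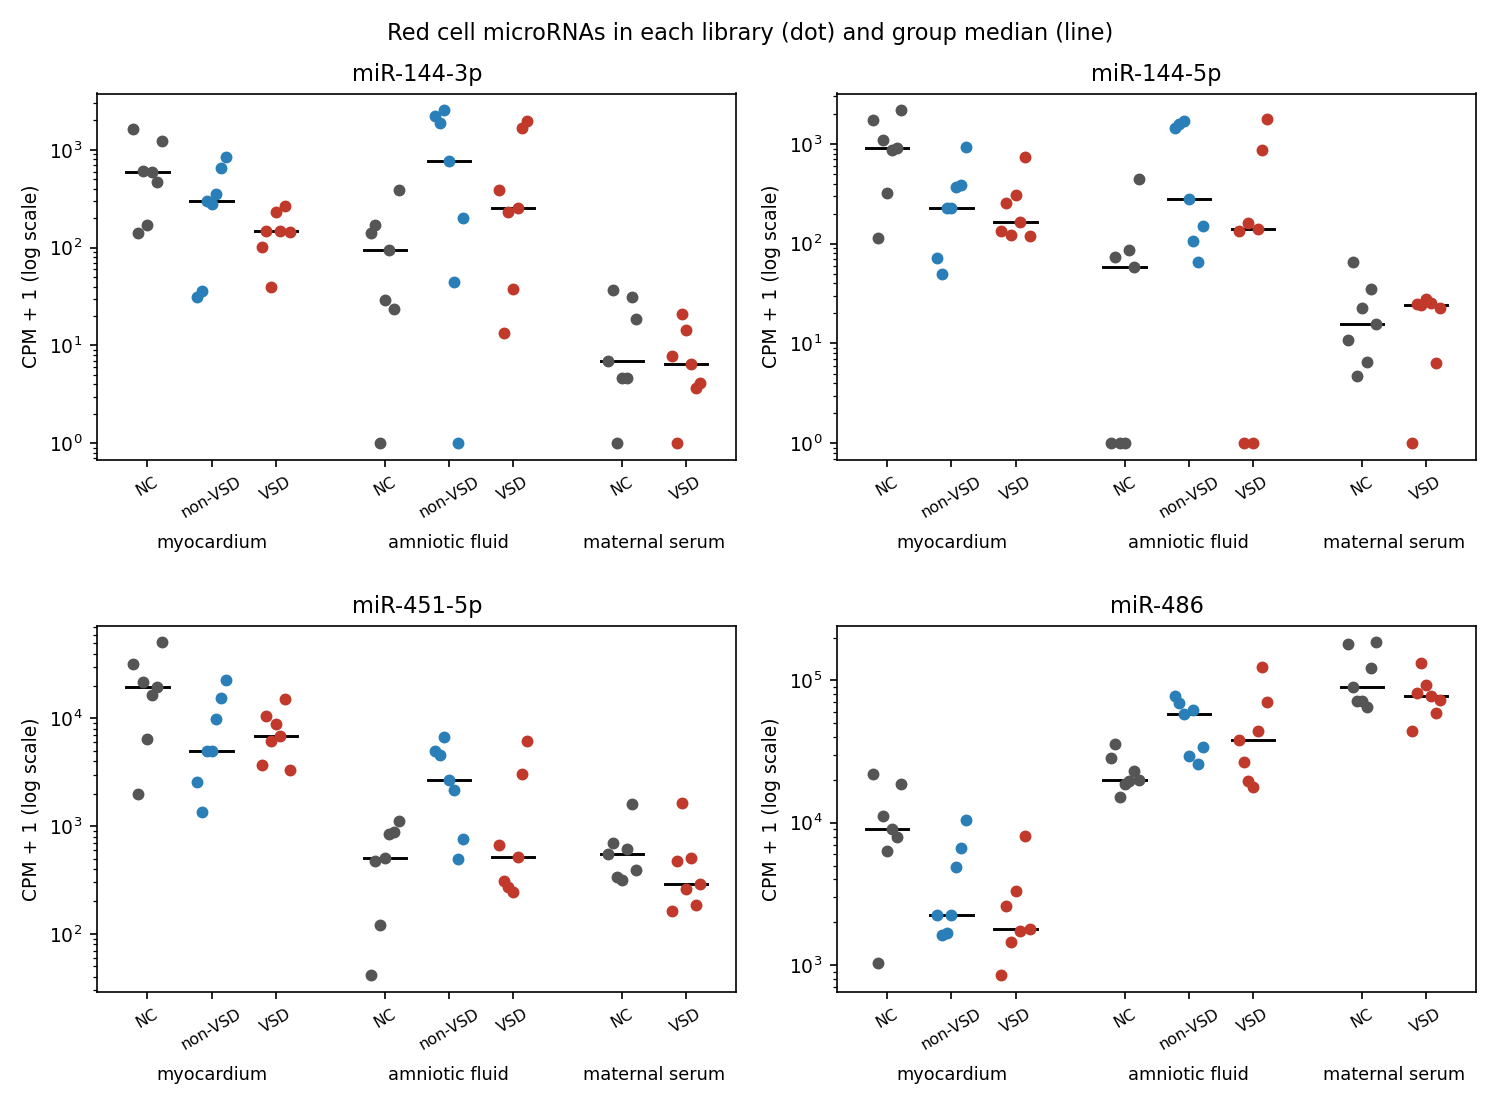
Levels of the 4 red cell microRNAs in every library, as CPM + 1 on a log axis, by tissue and group. Dots are single libraries and lines are group medians. In the myocardium the VSD dots lie below the NC median in each panel, in amniotic fluid 4 non-VSD and 2 VSD libraries exceed every NC library for miR-144-3p, and miR-486 is highest in maternal serum.

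The non-VSD hearts, from fetuses exposed to DMO without a septal defect, were also lower for 3 of the 4 members. MiR-144-5p ranged from 48.2 to 939 CPM with a median of 229 CPM. Its log2 fold change against NC was -1.98 (SE 0.67, adjusted p = 0.126). MiR-486 had a median of 2258 CPM and a range of 1617 to 10442 CPM, at a log2 fold change of -1.65 (SE 0.59, adjusted p = 0.145). MiR-451-5p had a median of 5025 CPM and a range of 1350 to 22649 CPM, at -1.56 (SE 0.67, adjusted p = 0.225). MiR-144-3p ranged from 29.9 to 851 CPM and did not meet the threshold (log2 fold change -1.25, SE 0.70, adjusted p = 0.407). In this comparison 2.41% of 456 microRNAs tested were lower by the same threshold, and no member passed after adjustment, where 0.219% of the table did. Scaling by library totals alone moved the median to 0.13 and the split from 11 lower and 8 higher to 4 and 16, and miR-451-5p no longer met the threshold (log2 fold change -1.27). The non-VSD hearts were uneven, since replicates 1 and 2 had the lowest miR-144-3p, miR-144-5p and miR-451-5p of the group and replicate 7 had the highest level of every member. Without any 1 of NC replicates 1, 3 and 7 and non-VSD replicates 1 to 4, 2 members met the threshold in place of 3. In those fits 7 to 17 of the 455 to 468 microRNAs tested were lower by the threshold. Without NC replicate 2, all 4 met the threshold, by which 13 of 455 microRNAs tested were lower. MiR-144-5p and miR-486 then had an adjusted p of 0.0451 and 0.0376, in a table in which 4.18% had one under 0.05. The VSD and non-VSD groups were each set against the same 7 NC hearts, so the lower levels in both are not independent of each other.

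The VSD and non-VSD hearts were compared directly to ask whether the members differ with the defect among exposed fetuses. None of the 4 met the threshold, by which 5.18% of 483 microRNAs changed in either direction. The log2 fold change of VSD against non-VSD was -1.31 for miR-144-3p (SE 0.65), -0.65 for miR-486 (SE 0.60), -0.34 for miR-144-5p (SE 0.64) and -0.27 for miR-451-5p (SE 0.61), with adjusted p of 0.439 and above. Without the 3 libraries low in heart muscle microRNAs, none of the 4 met the threshold either. The errors leave room for differences of more than 2-fold, so equal levels are not shown. MiR-144-3p met the threshold when only these groups were fitted, and when any of NC replicate 2, VSD replicate 6 or non-VSD replicate 1 or 2 was left out. MiR-486 met it without VSD replicate 6 (log2 fold change -1.31, SE 0.58, adjusted p = 0.335).

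The rare arm of the miR-451 hairpin was lower as well. MiR-451-3p had 468 counts in the 7 NC hearts, 159 in the VSD hearts and 111 in the non-VSD hearts, a median of 8.0, 2.11 and 2.53 CPM. It was lower in VSD hearts at a log2 fold change of -2.15 (SE 0.67, adjusted p = 0.0915) and in non-VSD hearts at -2.05 (SE 0.72, adjusted p = 0.131). Without the 3 libraries low in heart muscle microRNAs, miR-451-3p was at -2.11 (SE 0.66, adjusted p = 0.0993) in VSD and at -2.26 (SE 0.64, adjusted p = 0.0605) in non-VSD hearts. In the NC hearts the count of miR-451-5p was a median of 2047 times that of miR-451-3p. In a bulk tissue, fewer red cells and less of each microRNA per red cell cannot be told apart.

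Amniotic fluid showed the opposite direction. The libraries were shallower and made with another kit (QIAseq, against TruSeq for heart and serum), so levels are tested within the fluid only, and fluid values set beside those of heart or serum are a description. MiR-486 was by far the most counted of the 4. It ranged from 15217 to 35454 CPM in NC (median 19865 CPM), from 25758 to 77324 CPM in non-VSD (median 57856 CPM) and from 17927 to 123940 CPM in VSD (median 38055 CPM). Every non-VSD value exceeded the NC median, and 4 of the 7 exceeded the whole NC range. MiR-451-5p ranged from 40.2 to 1123 CPM in NC (median 507 CPM), from 499 to 6664 CPM in non-VSD (median 2661 CPM) and from 246 to 6174 CPM in VSD (median 515 CPM). Its non-VSD values were high in replicates 1 to 5, whereas in VSD only replicates 6 and 7 exceeded the NC range.

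The arms of miR-144 were near the limit of these libraries in NC fluid. MiR-144-3p had 91 counts over the 7 NC samples, 1485 over the non-VSD samples and 668 over the VSD samples, with medians of 92.6, 772 and 253 CPM. NC replicate 3 and non-VSD replicate 6 had a count of 0. MiR-144-5p had 75, 1077 and 454 counts, with medians of 58.0, 278 and 140 CPM. It was at 0 in 3 NC and 2 VSD samples, and at 5 counts or more in every non-VSD sample. In non-VSD fluid, replicates 1 to 3 had 387, 619 and 317 of the counts of miR-144-3p, and in VSD fluid replicates 6 and 7 had 204 and 308. A few samples of each DMO group thus held most of its counts.

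Against NC, all 4 members were higher in non-VSD amniotic fluid by the DE-microRNA threshold, in a table in which 8.68% of 242 microRNAs tested were higher. MiR-144-3p had a log2 fold change of 3.29 (SE 1.04), miR-144-5p of 3.12 (SE 1.07), miR-451-5p of 2.51 (SE 0.63) and miR-486 of 1.20 (SE 0.30), that is, 9.75-, 8.68-, 5.71- and 2.30-fold. MiR-451-5p and miR-486 passed after adjustment (both with an adjusted p of 0.0272 in edgeR's quasi-likelihood test), as did 4.96% of the table. The adjusted p was 0.0667 for miR-144-3p and 0.0944 for miR-144-5p. The same permutation test of TMM-scaled log2 CPM, exact and two-sided, gave p = 0.00816 for miR-486, 0.00991 for miR-451-5p, 0.0181 for miR-144-5p and 0.113 for miR-144-3p (n = 7 per group). The median of the 4 was 2.81, against 0.11 over all tested. Whichever sample was left out, all 4 met the threshold, by which 13 to 23 of the 247 to 258 microRNAs tested were higher. The adjusted calls were less stable. None of the 4 had an adjusted p under 0.05 without any 1 of NC replicates 1 to 4 and non-VSD replicates 2, 3 and 5. In those fits 0% to 2.37% of the table did. All 4 did without NC replicate 7, where 4.71% of 255 did.

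In VSD amniotic fluid, 2 of the 4 were higher by the threshold, where 3.67% of 245 microRNAs were. MiR-144-3p had a log2 fold change of 2.64 (SE 0.99, adjusted p = 0.238) and miR-486 of 1.19 (SE 0.41, adjusted p = 0.230). MiR-144-5p, at 2.43 (SE 1.26, adjusted p = 0.424), and miR-451-5p, at 1.62 (SE 0.79, adjusted p = 0.375), did not meet it. Without VSD replicate 6 or without VSD replicate 7, 1 member met the threshold, by which 9 of 251 and 5 of 252 microRNAs were higher. All 4 did without VSD replicate 2, VSD replicate 4 or NC replicate 7. In those fits 13 of 251, 11 of 252 and 13 of 252 were higher. VSD and non-VSD fluid did not differ for any member by the threshold, by which 3.30% of 273 microRNAs differed. The log2 fold changes of VSD against non-VSD were -0.57 for miR-144-3p (SE 0.99), -0.63 for miR-144-5p (SE 1.11), -0.80 for miR-451-5p (SE 0.74) and 0.05 for miR-486 (SE 0.40).

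In maternal serum the members showed no change that met the threshold, at which 4.57% of 219 microRNAs were called, each of them higher and none lower. MiR-486 made up a large part of serum counts, from 64938 to 185132 CPM in NC dams (median 89523 CPM) and from 43925 to 132614 CPM in VSD dams (median 77142 CPM). Its log2 fold change was -0.58 (SE 0.27), with an adjusted p of 0.335 in edgeR's quasi-likelihood test and a fold change under the threshold, although its unadjusted p was under 0.05. MiR-451-5p ranged from 313 to 1606 CPM in NC and from 162 to 1627 CPM in VSD dams, at a log2 fold change of -0.50 (SE 0.45, adjusted p = 0.656). The arms of miR-144 were below the filter on low counts. MiR-144-3p had 48 counts in 7 NC samples and 14 in 7 VSD samples, and miR-144-5p had 75 and 33, so a difference was not detectable at this depth.

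**Figure D2:**
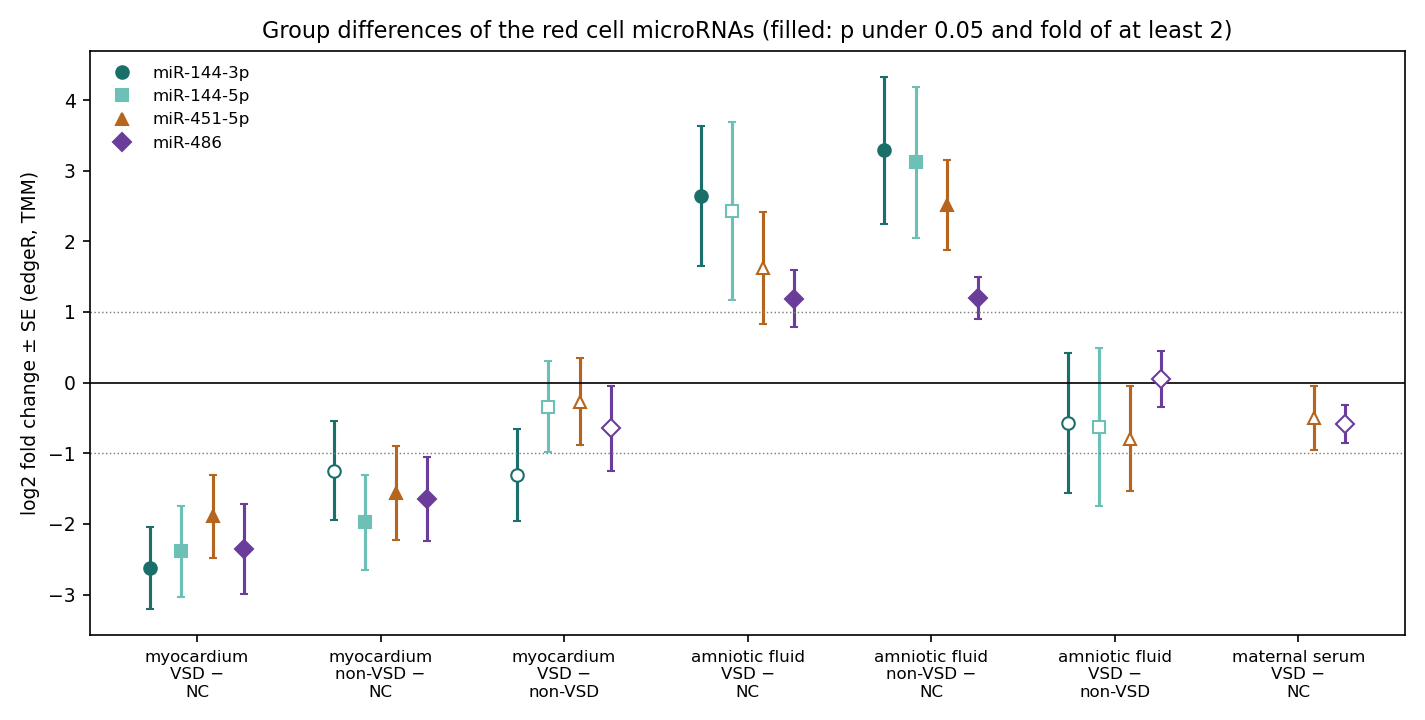
Log2 fold changes of the 4 members in the 7 comparisons, with the SE as bars, by edgeR with TMM scaling. Filled symbols met the DE-microRNA threshold, dotted lines mark a 2-fold change, and the miR-144 arms have no serum value. The symbols lie below 0 in both DMO heart groups against NC and above 0 in both amniotic fluid groups against NC.

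Whether the change from NC differed between tissues was tested by shuffling NC and DMO labels inside each tissue, for 16 combinations of a member and a pair of tissues. Only the members were tested, so the share of all microRNAs that differ in this way is not known. The shuffles took the tissues as independent, although samples of different tissues may share a fetus or a dam. Of the 16 combinations, 8 passed a Benjamini-Hochberg adjusted p of 0.05 by the permutation test (n = 7 per group). With library totals as the only scaling 5 passed, and with 1 sample left out 5 to 12 did. Without the 3 libraries low in heart muscle microRNAs 10 passed, among them all 8. One added pass was the VSD change of miR-144-5p between myocardium and serum (adjusted permutation p = 0.0448), which rests on few serum counts. Between myocardium and amniotic fluid, the change in the non-VSD group differed for all 4, by -5.05 for miR-144-5p (adjusted permutation p = 0.0119), -4.05 for miR-451-5p (0.0119), -3.75 for miR-144-3p (0.0442) and -2.57 for miR-486 (0.0126) on the log2 scale. The call for miR-144-3p was lost with library totals (adjusted permutation p = 0.0646). In the VSD group it differed by -4.12 for miR-144-3p (adjusted permutation p = 0.0126), -3.76 for miR-144-5p (0.0382, and 0.0594 with library totals) and -3.13 for miR-486 (0.0119). For miR-451-5p the VSD difference was -2.51, with an adjusted permutation p of 0.0806, or 0.0301 without the 3 heart libraries. Serum and amniotic fluid differed in the VSD change of miR-486 by 1.36 (adjusted permutation p = 0.0284, and 0.0507 with library totals). Between myocardium and serum, the difference was -1.77 for miR-486 and -0.87 for miR-451-5p, with adjusted permutation p of 0.101 and 0.379. The arms of miR-144 had too few serum counts for this comparison to be read. Their counts in NC amniotic fluid were also near the limit, with some samples at 0. The sizes of their differences between heart and fluid are therefore rough.

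The ratio of miR-451-5p to miR-23a-3p needs no normalization between libraries. Its sign against NC was that of the members in each tissue. Since miR-451-5p is itself a member, the shared sign is not separate support. In the myocardium, the mean log2 ratio was 4.66 ± 1.62 in NC (SD, n = 7), 3.11 ± 1.54 in non-VSD and 3.27 ± 0.90 in VSD. All 7 VSD hearts and 6 of 7 non-VSD hearts lay below the NC median. The differences of -1.39 and -1.55 were within the spread between samples (exact two-sided permutation p = 0.0711 and 0.0927, both 0.216 after adjustment over 7 comparisons). Without NC replicate 2 they were -1.92 and -2.08, with an unadjusted exact permutation p of 0.00408 and 0.0152 (7 against 6 samples), and without VSD replicates 1 and 4 as well the VSD difference was -1.87 (exact permutation p = 0.0108). In amniotic fluid the mean log2 ratio was -4.56 ± 1.62 in NC, -1.51 ± 1.58 in non-VSD and -2.94 ± 2.0 in VSD. Non-VSD fluid exceeded NC by 3.05 (exact permutation p = 0.00583, adjusted p = 0.0408, 6 of 7 samples above the NC median). With miR-103-3p in place of miR-23a-3p that difference was 1.84 (exact permutation p = 0.00466). VSD fluid exceeded NC by 1.63 (exact permutation p = 0.130), by 0.996 without VSD replicate 7 and by 0.23 with miR-103-3p (exact permutation p = 0.793). In non-VSD fluid miR-103-3p itself was higher than in NC by the DE-microRNA threshold. In VSD serum the log2 ratio of miR-451-5p to miR-23a-3p differed from NC by -0.55 (exact permutation p = 0.336).

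**Figure D3:**
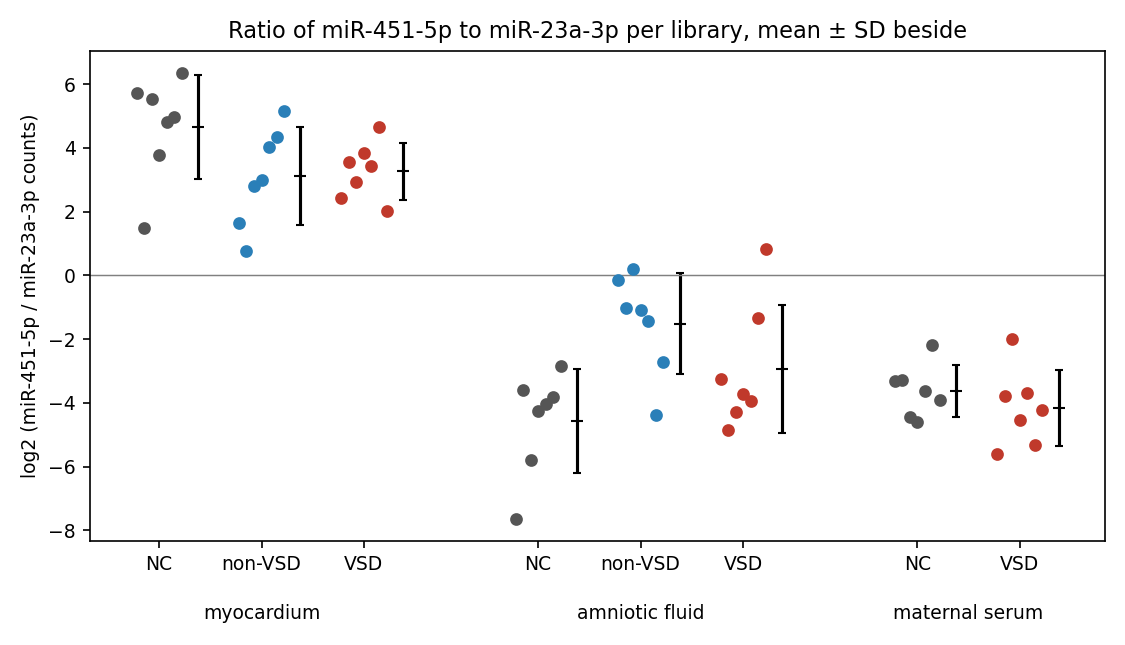
Log2 ratio of miR-451-5p to miR-23a-3p counts in each library (dots), with the group mean ± SD beside. The ratio lies above 0 in every heart, from 0.77 to 6.35, and below 0 in every serum sample, and among the fluids it exceeds 0 in non-VSD replicate 3 and VSD replicate 7.

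The members did not keep the same proportions across tissues. Levels of NC myocardium and NC serum, made with the same library kit, were compared by an exact two-sided permutation test on log2(CPM + 1). MiR-144-3p, miR-144-5p and miR-451-5p were 59.0-, 46.0- and 26.6-fold higher in the myocardium, and miR-486 was 12.8-fold higher in serum. The folds of the miR-144 arms are rough, since NC serum libraries had 0 to 21 counts of miR-144-3p, and with 10 in place of 1 added to the CPM they were 25.1 and 27.8. Without NC heart replicate 2 the folds were 72.9, 62.9 and 37.2, and 9.12 for miR-486. The groups did not overlap for any of the 4, and each exact permutation p was 0.000583, the smallest that 7 against 7 samples can give. Other microRNAs were not compared in this way. How many of them also separate heart from serum is therefore not known, and the members are not shown to be unusual. The RNA had been extracted with different kits, and that part was not tested. The count of miR-486 was a median of 0.520 times that of miR-451-5p in NC hearts, 36.8 times in NC amniotic fluid and 214 times in NC serum. It ranged from 0.368 to 0.978 in NC hearts and from 76.5 to 472 in NC serum. Within the myocardium the median was 0.461 in non-VSD and 0.255 in VSD hearts. Between the arms of miR-144, the 3p count was a median of 0.569 times the 5p count in NC hearts, 0.744 in VSD hearts (0.569 without VSD replicates 1 and 4) and 0.955 in non-VSD hearts.

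**Figure D4:**
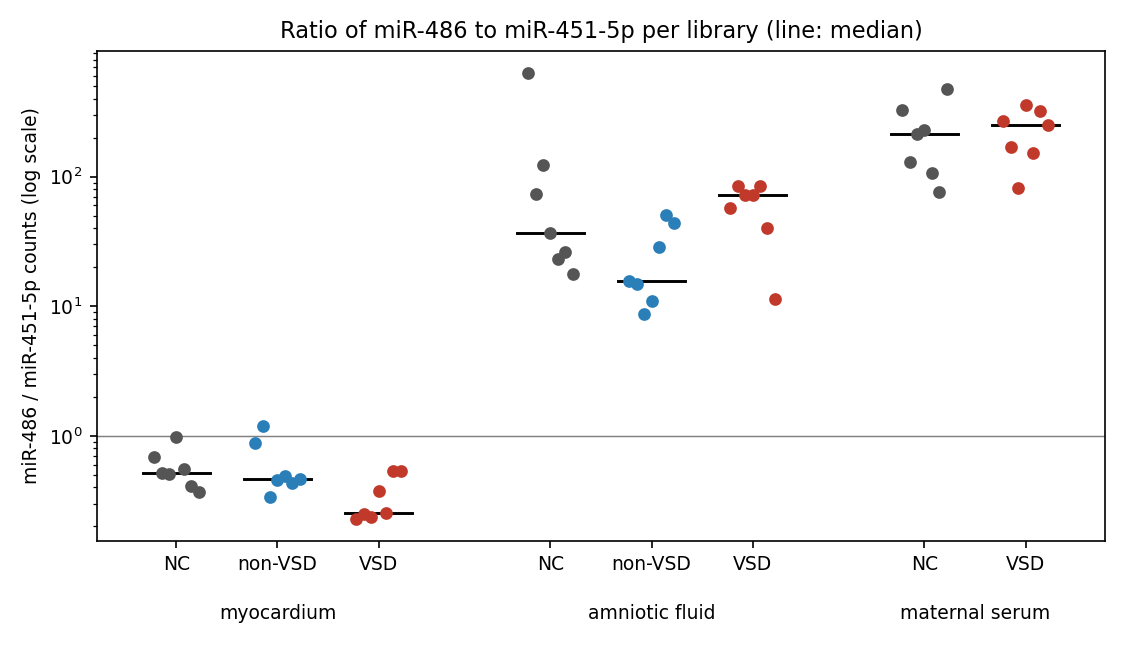
Ratio of miR-486 to miR-451-5p counts (0.5 added to each) in every library on a log axis, with lines at the group medians. Most hearts lie below 1, amniotic fluid lies between 8.68 and 631, and maternal serum lies between 76.5 and 472.

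The order of the groups by level differed between the members, and is a description where it crosses library kits. For miR-451-5p the NC myocardium had the highest median, followed by the VSD and the non-VSD myocardium, whose ranges overlapped, and then by non-VSD amniotic fluid. NC serum (551 CPM), VSD fluid (515 CPM), NC fluid (507 CPM) and VSD serum (290 CPM) had medians within the spread of one another. For miR-486 the order was NC serum, VSD serum, non-VSD fluid, VSD fluid, NC fluid and then the 3 heart groups, with NC, non-VSD and VSD hearts in that order. Both arms of miR-144 were lowest in serum, at medians of 5.40 to 23.3 CPM.

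Across samples of a tissue, after each group's mean had been subtracted, the 4 members varied together. The Spearman correlation between pairs of members was 0.83 to 0.97 over 21 hearts, 0.62 to 0.85 over 21 amniotic fluids and 0.38 to 0.58 over 14 sera. The members of a pair share the library and its scaling, so these are descriptions. In the myocardium, the microRNAs outside the 2 hairpins and miR-486 whose spread was most like the mean of the 4 were miR-142-5p (0.97), miR-142-3p (0.96), miR-3590-3p (0.91), miR-185-5p (0.85) and miR-7a-5p (0.75), of 483 compared. MiR-142 is made in all blood cell lineages and serves as a marker of hematopoietic cells. In amniotic fluid they were miR-142-3p (0.94), miR-126a-3p (0.88), let-7a-5p (0.86), miR-16-5p (0.84) and miR-142-5p (0.84), of 273. In serum they were miR-15b-5p (0.83), let-7i-5p (0.70), miR-300-3p (0.69), miR-25-3p (0.69) and miR-497-5p (0.67), of 219.

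**Figure D5:**
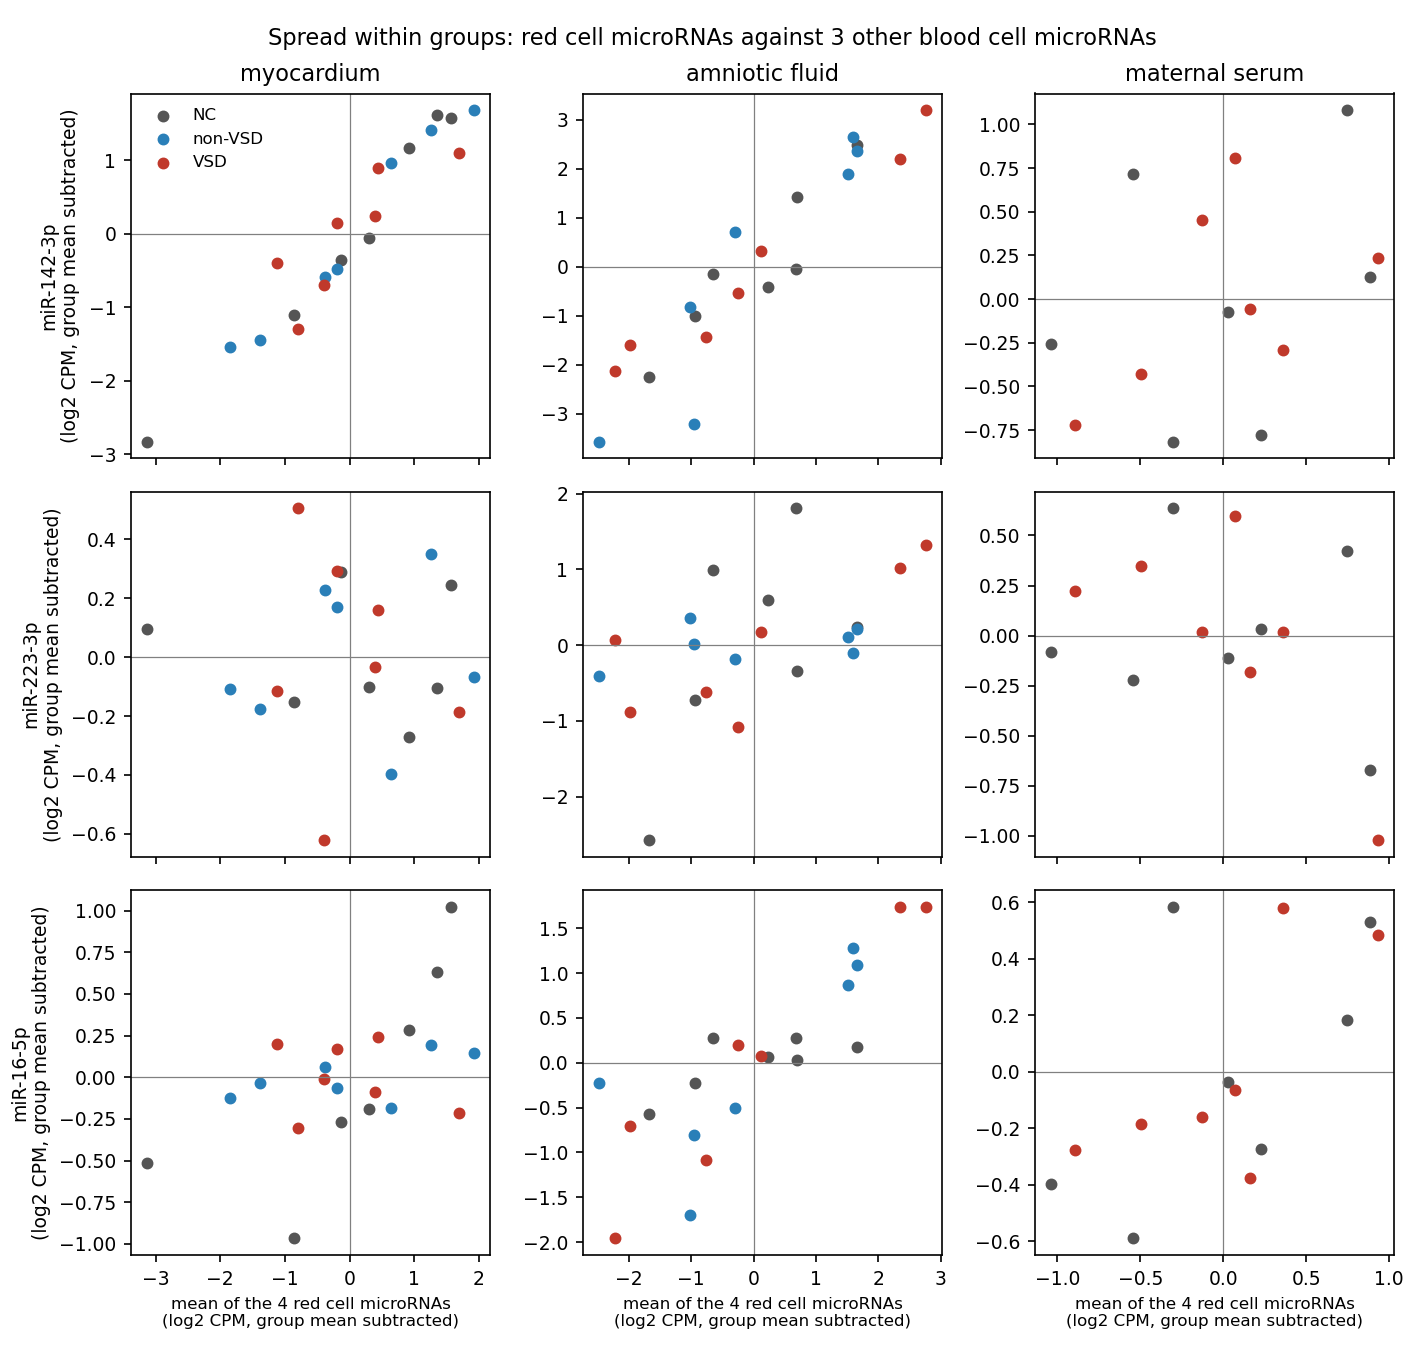
Deviation of miR-142-3p, miR-223-3p and miR-16-5p from their group means in log2 CPM (rows), against that of the mean of the 4 members, for each tissue (columns). Dots are libraries. MiR-142-3p follows the members in heart and amniotic fluid (Spearman 0.96 and 0.94) and less closely in serum (0.32), while miR-223-3p shows no such relation in the heart (0.04).

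Other microRNAs that are abundant in red cells were looked at as a list of 5 (miR-16-5p, miR-15a-5p, miR-92a-3p, miR-25-3p and miR-363-3p). None of the tested ones met the threshold in any of the 7 comparisons, with 3 to 5 of the 5 above the filter. In VSD hearts, miR-25-3p had a log2 fold change of -0.83 (SE 0.28, adjusted p = 0.113) and miR-92a-3p of -0.78 (SE 0.25, adjusted p = 0.0997), both under 2-fold. Without the 3 libraries low in heart muscle microRNAs, miR-25-3p met the threshold at -1.11 (SE 0.32, adjusted p = 0.0833). MiR-16-5p was at -0.30 (SE 0.27). The list's summed level was 7602 to 14432 CPM in NC hearts, 7949 to 10511 CPM in non-VSD hearts and 4896 to 12075 CPM in VSD hearts, against 3266 to 73069 CPM, 3051 to 34882 CPM and 4766 to 24223 CPM for the 4 members. Each of the 5 is also made in many other cells. In non-VSD amniotic fluid, miR-363-3p had a log2 fold change of 2.17 (SE 1.05, adjusted p = 0.254) and miR-92a-3p of 0.88 (SE 0.32, adjusted p = 0.110).

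Markers of white cells moved with the members in part. The 4 were miR-142-3p and miR-142-5p, found in all blood lineages, miR-223-3p, a myeloid microRNA, and miR-150-5p, a microRNA of mature lymphocytes. In VSD hearts, miR-142-5p was lower at a log2 fold change of -2.55 (SE 0.63, adjusted p = 0.0645) and miR-142-3p at -1.81 (SE 0.58, adjusted p = 0.0997), whereas miR-223-3p was at 0.18 (SE 0.19) and miR-150-5p at -0.14 (SE 0.21). In non-VSD hearts, 1 of the 4 was lower, miR-142-5p at -1.58 (SE 0.69, adjusted p = 0.238). The list summed to 525 to 3013 CPM in NC hearts, 309 to 1100 CPM in VSD hearts and 354 to 2087 CPM in non-VSD hearts, with none of the 4 at 0. Without the 3 heart libraries the same calls were made, and miR-142-5p had an adjusted p of 0.0466 in VSD hearts. In amniotic fluid, miR-142-3p was higher in non-VSD at 2.86 (SE 0.88, adjusted p = 0.0606) and in VSD at 2.36 (SE 0.85, adjusted p = 0.230). Neither miR-223-3p nor miR-150-5p met the threshold there. The white cell sum ranged from 543 to 6967 CPM in NC, 1752 to 26635 CPM in non-VSD and 1092 to 28311 CPM in VSD fluid. The part of white cells in the members' differences was not tested.

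Of the microRNAs most like the members in the heart, miR-185-5p was lower in VSD hearts at a log2 fold change of -1.54 (SE 0.35, adjusted p = 0.0569). It was higher in non-VSD amniotic fluid at 2.11 (SE 0.60, adjusted p = 0.0464) and in VSD fluid at 1.73 (SE 0.65, adjusted p = 0.238). MicroRNA miR-3590-3p was below the filter in amniotic fluid, and in the heart it was lower in VSD at -2.54 (SE 0.66, adjusted p = 0.0645) and in non-VSD at -2.10 (SE 0.71, adjusted p = 0.126).

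Markers of other cells were set beside these differences. The endothelial microRNAs miR-126a-3p and miR-126a-5p summed to 10638 to 16523 CPM in NC hearts, 20135 to 29096 CPM in non-VSD hearts and 16153 to 30570 CPM in VSD hearts. With TMM scaling, miR-126a-3p was at 0.35 (SE 0.18) in VSD and 0.77 (SE 0.20) in non-VSD hearts, under the 2-fold threshold. None of the 6 heart muscle and 7 epithelial microRNAs met the threshold in either group against NC. Without the 3 libraries, miR-1-3p of the heart muscle list was lower in VSD hearts at -1.07 (SE 0.40, adjusted p = 0.130), and 4 of the 7 epithelial microRNAs were higher there, from miR-203a-3p at 1.82 to miR-141-3p at 2.23. The heart muscle sum was 5024 to 62416 CPM in NC, 27846 to 44532 CPM in non-VSD and 7527 to 44008 CPM in VSD hearts. In non-VSD amniotic fluid miR-126a-3p was higher at 1.54 (SE 0.44, adjusted p = 0.0464 by edgeR's quasi-likelihood test). In VSD fluid the liver microRNA miR-122-5p was higher at 3.0 (SE 0.92, adjusted p = 0.174), with a median of 812 CPM, a highest value of 33502 CPM and an NC range of 379 to 1663 CPM. Epithelial microRNAs in the fluid summed to 86213 to 142796 CPM in NC, 52108 to 116856 CPM in non-VSD and 49862 to 150910 CPM in VSD fluid, and none of the 7 met the threshold. The part of these cells in the members' differences was not tested.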

How the data were processed

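Small RNA libraries of 56 samples were analysed, 7 per group. Per the labels, library kits were QIAseq for amniotic fluid and TruSeq for myocardium and serum. The deposited tables hold raw read counts per mature microRNA made by the authors, and these counts were used here. Their 70 per-sample normalized columns and their columns of fold changes and p-values were not used. The submitters' processing notes name bcl2fastq 2.19 and DESeq. The aligner, the annotation and the genome build are not given in the sources used here.

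Each comparison was fitted with edgeR 4.0.16 (R 4.3.3) by the quasi-likelihood test, with TMM scaling and filterByExpr (minimum count 10, minimum total 15). VSD against non-VSD was taken from a fit of all 3 groups. A DE-microRNA had an unadjusted p under 0.05 and a fold of 2 or more up or down (0.5 or less), and p-values adjusted over the whole table are given beside. Permutation tests (SciPy 1.17.1) were exact over 3432 groupings, or drew 100000 for differences between tissues. Ratios had 0.5 added to each count. CPM was computed from the listed counts, and 3 counts were taken as the limit for a count of 0. Of the tests, the edgeR, DESeq2 and limma fits were run on simulated counts with known fold changes. Alternatives were DESeq2 1.42.0, limma 3.58.1, other scalings and filters, a replicate block and leaving out each sample. The fits without the 3 heart libraries low in heart muscle microRNAs were chosen after seeing the data.

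The members and marker lists were chosen with earlier results of these data known. The named microRNAs were the members, the lists, miR-451-3p and the 5 microRNAs per tissue most like the members' mean.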

Additional observations from a re-analysis of the deposited data

Results flagged for a closer look

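In the NC myocardium, miR-486 in replicate 2 stood apart from the other 6 hearts. It had 9660 counts, or 1031 CPM, and its gap to the nearest heart was 0.590 of the group's range on the log2 scale. Of 40 groups of a member in a tissue and condition, or its ratio, this was the only one to stand apart. Chance gives about 1 in 20, so 1 among 40 is no more than chance would give. The same library had the lowest summed level of heart muscle microRNAs in the myocardium, 5024 CPM.

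The change from NC differed between myocardium and amniotic fluid by a permutation test of the difference itself. In the VSD group the log2 difference was -4.12 for miR-144-3p, -3.76 for miR-144-5p and -3.13 for miR-486. In the non-VSD group it was -3.75 for miR-144-3p, -5.05 for miR-144-5p, -4.05 for miR-451-5p and -2.57 for miR-486. Between amniotic fluid and serum, the VSD change of miR-486 differed by 1.36. With library totals as the only scaling, the differences for miR-144-5p in VSD, miR-144-3p in non-VSD and miR-486 between amniotic fluid and serum did not pass. Only the members were tested, so the share of all microRNAs that differ in this way is not known. The sizes for the arms of miR-144 are rough, since their counts in NC fluid were near the limit.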

How the results depend on the processing

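No member changed direction against NC in the myocardium or in amniotic fluid under any alternative tried, but the number that met the threshold did change. At an adjusted p under 0.05, that number was 0 in VSD myocardium, 0 in non-VSD myocardium, 0 in VSD amniotic fluid and 2 in non-VSD amniotic fluid, in place of 4, 3, 2 and 4. In VSD amniotic fluid it was 0 with limma, 0 with the replicate block, 1 when at least 10 counts were asked for in every sample, 4 with no filter, and 1 to 4 with 1 sample left out. In non-VSD amniotic fluid it was 1 when at least 10 counts were asked for in every sample, which leaves fewer microRNAs tested. In both fluid comparisons with NC, that filter drops the arms of miR-144 and miR-451-5p, which had 4 counts in NC replicate 1. Only miR-486 of the members was then tested, and it met the threshold. Between VSD and non-VSD the number was 1 in the myocardium with DESeq2 and 1 with only those samples fitted, against 0, and 0 to 2 with 1 sample left out. In amniotic fluid it was 1 with the replicate block and 0 to 1 with 1 sample left out. Of the 16 differences between tissues, 5 passed in place of 8 with library totals as the only scaling, and 5 to 12 passed with 1 sample left out, 5 without amniotic fluid NC replicate 3 or VSD replicate 6 and 12 without myocardium NC replicate 2. Without the 3 heart libraries low in heart muscle microRNAs, 10 passed, among them miR-144-5p between myocardium and serum, which rests on few serum counts.

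For the ratio of miR-451-5p to miR-23a-3p, the non-VSD myocardium differed from NC by -1.55 with the replicate block (exact p = 0.0156, the smallest it can give), and VSD from non-VSD amniotic fluid by -1.61 with miR-103-3p as the reference (exact p = 0.0169). With that reference the differences from NC in amniotic fluid shrank to 0.23 for VSD and 1.84 for non-VSD. Without the 3 heart libraries, the VSD and non-VSD myocardium differed from NC by -1.87 and -2.08 (exact p = 0.0108 and 0.0152). With 1 sample left out, the difference was -1.92 to -1.11 for VSD and -2.08 to -1.16 for non-VSD myocardium against NC, -0.23 to 0.50 between VSD and non-VSD myocardium, -2.06 to -1.11 between VSD and non-VSD amniotic fluid, and 0.996 to 1.94 for VSD and 2.54 to 3.53 for non-VSD amniotic fluid against NC. Values near 0 turned sign between VSD and non-VSD. In the myocardium, miR-144-5p was at 0.064 with the replicate block and -1.0 to 0.22 with 1 sample left out, and miR-451-5p was at 0.034 with limma, 0.26 with the replicate block and -0.62 to 0.18 with 1 left out. In amniotic fluid, miR-486 was at -0.17 with limma, -0.058 with library totals, -0.14 with the replicate block, -0.042 with only those samples fitted and -0.41 to 0.24 with 1 left out. The cause of these changes was not tested. Pairing by replicate number was not detected, since in none of the 7 pairs of groups were all 7 correlations of same-numbered samples over 0.1. That check cannot exclude pairing, because the rule is strict and some heart replicate numbers differ from those in the sample codes. The number over 0.1 ran from 0 between VSD and non-VSD amniotic fluid to 5 between VSD and non-VSD myocardium and between NC and VSD serum.

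Over the whole table, microRNAs with an adjusted p under 0.05 numbered 2 in VSD myocardium, against 46 with DESeq2, 38 with library totals, 25 with all 3 groups fitted and 15 with at least 10 counts asked for in every sample. In non-VSD myocardium they numbered 1, against 48, 22, 7 and 8, and in non-VSD amniotic fluid 12, against 29 with DESeq2 and 2 with the replicate block. With no filter, 52 microRNAs met the threshold in VSD myocardium, 35 in non-VSD myocardium, 84 in VSD amniotic fluid and 109 in non-VSD amniotic fluid, against 32, 19, 17 and 30, and 7 did with limma in VSD amniotic fluid. Depth limits miR-144 in amniotic fluid and serum, where single libraries had 0 counts.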
